A study of Mus musculus with 6 samples.

Results

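Imprinted genes are genes of which mainly the copy from 1 parent is transcribed. The 34 described here were followed in the tailbud of the E10.5 mouse embryo, the tissue caudal to the last somite that builds the end of the body axis. They were chosen by name as imprinted genes other than those of the IGF pathway, and each of the 34 names was found once among the 54134 genes of the count table. RNA was sequenced from 6 tailbuds of the C57BL/6 strain, 1 library per embryo, of which 4 were wildtype and 2 were Cdx2P:Nr6a1. In Cdx2P:Nr6a1 embryos a Cdx2 promoter, active in the posterior embryo, drives the long isoform of Nr6a1, an orphan nuclear receptor that is normally switched off in the tailbud by this stage. The comparison asks what prolonged Nr6a1 does to gene expression there. The transgenic embryos were transient: each arose from its own pronuclear injection, with its own insertion site and copy number, and the wildtype embryos were the transgene-negative ones from the injections.

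Imprinted genes lie mostly in clusters, in which a stretch of DNA methylated on 1 parental chromosome in the germline sets which copy is read. Many clusters pair protein-coding genes read from the paternal copy with a long noncoding RNA read from the maternal copy, or the reverse, and several members act on embryonic and placental growth in opposite directions. The mark is kept after fertilisation by the zinc finger protein ZFP57, which binds TGCCGC when it is methylated, together with TRIM28 and DNA methyltransferases. Some members are imprinted in few tissues only, such as Ube3a in neurons and Ascl2 and Cd81 in the placenta. The counts do not separate the parental copies, so a level here is the sum over both, and the words maternal and paternal refer to the copy known to be expressed, not to a measurement.

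The sequences ahead of Dlk1 and Meg3 are shown first because these are neighbours in 1 cluster of which the first was called and the second was not. They are the RefSeq bases (GRCm38.p6, plus strand) upstream of the start of Dlk1, chr12:109452573-109452822, and of Meg3, chr12:109540746-109540995, 250 bases each, with each CpG in capitals.
Dlk1: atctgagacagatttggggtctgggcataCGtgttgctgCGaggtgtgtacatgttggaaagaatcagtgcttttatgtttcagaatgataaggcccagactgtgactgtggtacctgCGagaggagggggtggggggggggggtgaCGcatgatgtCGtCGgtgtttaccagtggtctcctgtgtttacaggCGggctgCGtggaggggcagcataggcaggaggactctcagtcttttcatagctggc
Meg3: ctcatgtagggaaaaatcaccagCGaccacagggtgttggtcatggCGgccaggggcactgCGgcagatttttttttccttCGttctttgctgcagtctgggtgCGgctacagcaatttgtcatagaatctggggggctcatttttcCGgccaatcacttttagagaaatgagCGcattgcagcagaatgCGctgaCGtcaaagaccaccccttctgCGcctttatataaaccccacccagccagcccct
The Dlk1 stretch held 8 CpGs and the Meg3 stretch 10.

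Of the 34 genes, 26 had a RefSeq promoter window, which runs from 250 bases before to 50 bases after a start. Their median number of CpGs was 17, from 0 in Rian to 45 in Grb10, compared with 8 over the 27025 genes with a window. TGCCGC, searched on both strands, stood in a window of 9 of the 26 (34.6%), compared with 13.1% of all genes. The 9 genes were Meg3, Zim1, Mest, Grb10, Plagl1, Snrpn, Nnat, Zdbf2 and Nap1l5. A gene was counted if any of its windows matched, and the 26 genes had 39 windows, beside 32851 for the 27025 genes. TGCCGC contains a CpG, and the part of the number of CpGs and of windows in this contrast was not tested. For 6 of the 9 genes the first match lay wholly upstream of the start. They are shown as 54 bases each, 5′ to 3′ on the strand of the gene, to show the motif in its setting, with the motif or its reverse complement in capitals.
Zdbf2, chr1:63200179-63200232, plus strand: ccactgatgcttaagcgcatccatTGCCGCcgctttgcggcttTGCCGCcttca
Mest, chr6:30737800-30737853, plus strand: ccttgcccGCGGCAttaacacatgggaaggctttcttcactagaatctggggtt
Nap1l5, chr6:58907127-58907180, minus strand: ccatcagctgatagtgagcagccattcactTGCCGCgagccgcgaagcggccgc
Zim1, chr7:6696433-6696486, minus strand: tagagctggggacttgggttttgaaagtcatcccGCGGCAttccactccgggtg
Plagl1, chr10:13090718-13090771, plus strand: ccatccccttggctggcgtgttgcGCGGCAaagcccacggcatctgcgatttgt
Meg3, chr12:109540782-109540835, plus strand: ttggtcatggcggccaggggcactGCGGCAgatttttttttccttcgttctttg
The Zdbf2 window lies ahead of a RefSeq start outside the counted gene, which runs from 63273265 to 63314576. The Mest and Plagl1 windows lie within the counted spans, 30723547 to 30748465 and 13060504 to 13131694. A match is a description of the letters and not a bound site. The letters AGGTCA, the core letters that nuclear receptors such as Nr6a1 read, stood in the windows of 2 of the 26 genes, Meg3 and Airn (7.69%), compared with 18.1% of all genes. Its direct repeat without a gap, the arrangement Nr6a1 is known to prefer, stood in 0 of the 26 and in 0.0037% of all genes, and TCAAGGTCA, which contains AGGTCA, in 0 of the 26 and in 0.466% of all genes. No match says only that these letters are not in these windows.

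The libraries held between 44073460 and 67183802 counts, and 12733 genes were expressed enough to be tested: 2 or more libraries had to exceed both a count of 10 and a CPM of 2. CPM is the count of a gene scaled to a library of 1000000 counts. Nr6a1 had a CPM of 3.91, 5.18, 5.53 and 6.89 in the wildtype libraries and of 23.4 and 33.8 in the Cdx2P:Nr6a1 libraries, so it was higher in both transgenic embryos, as labelled. The 6 tailbud markers, T, Cdx2, Tbx6, Wnt3a, Fgf8 and Msgn1, all passed the filter, with a summed CPM of 2052 to 2289 in wildtype and of 1923 and 2138 in Cdx2P:Nr6a1. Their members differed in direction: Cdx2 was called higher (log2 fold change 0.35, adjusted p = 0.0340, edgeR, called in 6 of 12 alternatives), whereas Tbx6 (-0.26) and Msgn1 (-0.43) were not called, Tbx6 lying below all wildtype libraries in both transgenic embryos. Markers of other cells were present too, and the summed CPM of 5 erythroid markers ranged from 8102 to 19537 over the libraries. Of 5 neural tube markers, 3 were tested. Sox1 (log2 fold change 1.77, adjusted p = 0.0116, edgeR) and Sox3 (1.26, adjusted p = 0.00714, edgeR) were called higher in Cdx2P:Nr6a1. Sox2 was not called (0.17, adjusted p = 0.653, edgeR). Of 5 somite markers, 3 were tested, all with a log2 fold change below 0 and 0 called. In bulk RNA, fewer cells of a type and less RNA per cell cannot be told apart. Genes of the Y chromosome were read above a trace in wildtype replicate 3 and Cdx2P:Nr6a1 replicate 2 only.

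The 34 imprinted genes held an uneven share of the tailbud RNA. Their summed CPM was 6566, 6983, 7017 and 7087 in the wildtype libraries, a mean of 6913 ± 236 (SD, n = 4) or 0.691% of all counts. H19, a maternally expressed long noncoding RNA, made up 37.3% of that sum, and H19, Grb10, Mest, Rian and Peg10 together made up 75.1%. In wildtype, 2 genes had a mean CPM of 1000 or more, 8 lay between 100 and 1000, 14 between 10 and 100, 8 between 1 and 10, and 2 below 1.

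Per kb of exon, which allows genes to be compared, H19 had the highest level at 1047 CPM per kb (981 to 1138 over the 4 wildtype libraries), rank 13 of the 12733 genes tested. Grb10, an adaptor that restrains growth factor signalling, followed at 159.7 CPM per kb. Mest, a hydrolase-like protein long used as a mark of mesoderm, had 127 CPM per kb. Nnat, a small membrane protein encoded in an intron of Blcap, had 109 CPM per kb. Cd81, a tetraspanin, had 50.5 CPM per kb. The wildtype ranges of these 5 neighbours in the order did not overlap over all exon bases. Divided by the exon bases shared with no other gene, a length chosen after the data were seen, Mest had 165 CPM per kb (158 to 172), which overlapped Grb10 (152 to 165), so the order of these 2 genes depends on whether shared bases were counted. Over all exon bases, along the whole order 15 of the 33 adjacent pairs overlapped in wildtype. Dlk1, for example, could not be set apart by its range from Peg3 or Impact, its neighbours at 17.4 and 16.3 CPM per kb.

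**Figure D1:**
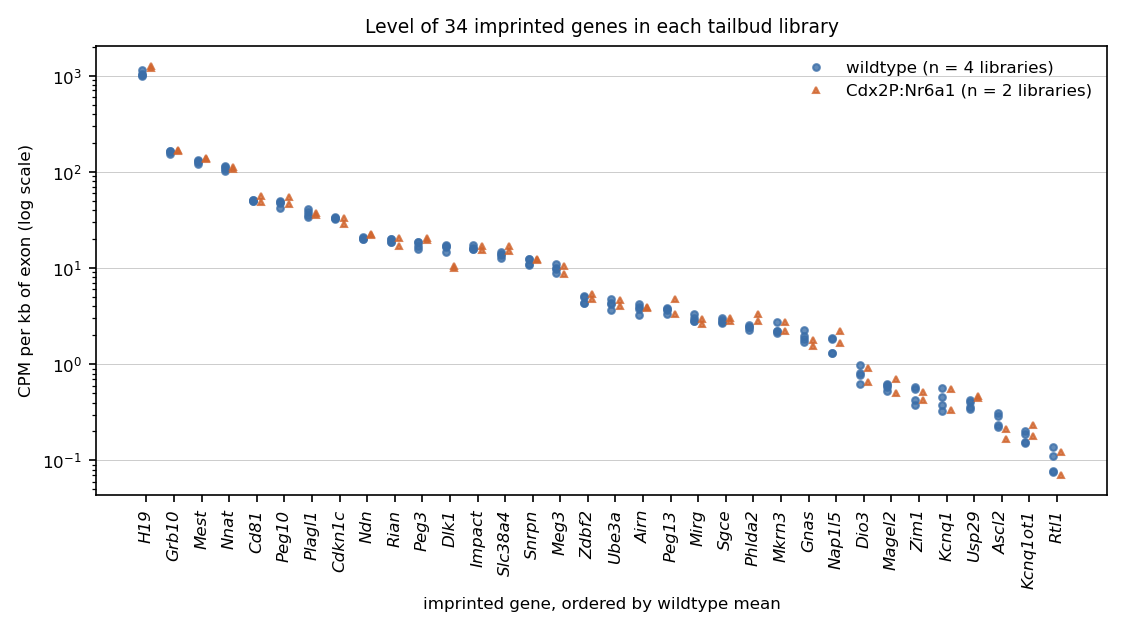
CPM per kb of exon (log scale) of each of the 34 imprinted genes in every library, with 4 wildtype libraries as circles and 2 Cdx2P:Nr6a1 libraries as triangles, ordered by the wildtype mean. H19 stands at 1047 in wildtype, well above Grb10 at 159.7, the levels then fall to 0.101 for Rtl1, and Dlk1 is the gene with both triangles clearly below its circles.

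For each gene that passed this filter, the genotypes were tested with the quasi-likelihood method of edgeR. Genes with a p under 0.05 after Benjamini-Hochberg adjustment over all of them were called. Of the 34 genes, 31 were tested. Of these, 1 was called, Dlk1, which fell in Cdx2P:Nr6a1 tailbuds, and 0 were called higher. Over all genes tested, 1.59% were called in either direction, 0.785% higher and 0.809% lower. At an unadjusted p under 0.05 stood 4 of the 31, Dlk1, H19, Slc38a4 and Peg3, where 10.5% of all genes did so. The log2 fold changes of the 31 genes ranged from -0.68 to 0.32, with 21 above and 10 below 0 and a median of 0.05, beside -0.0007 over all genes tested. For 7 of the 31 genes the 2 transgenic embryos were both above all 4 wildtype embryos, which held for 10.1% of all genes, and for 1 both were below, which held for 8.48%. The 7 genes were H19, Peg3, Usp29, Mest, Ndn, Slc38a4 and Phlda2, none of them called.

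**Figure D2:**
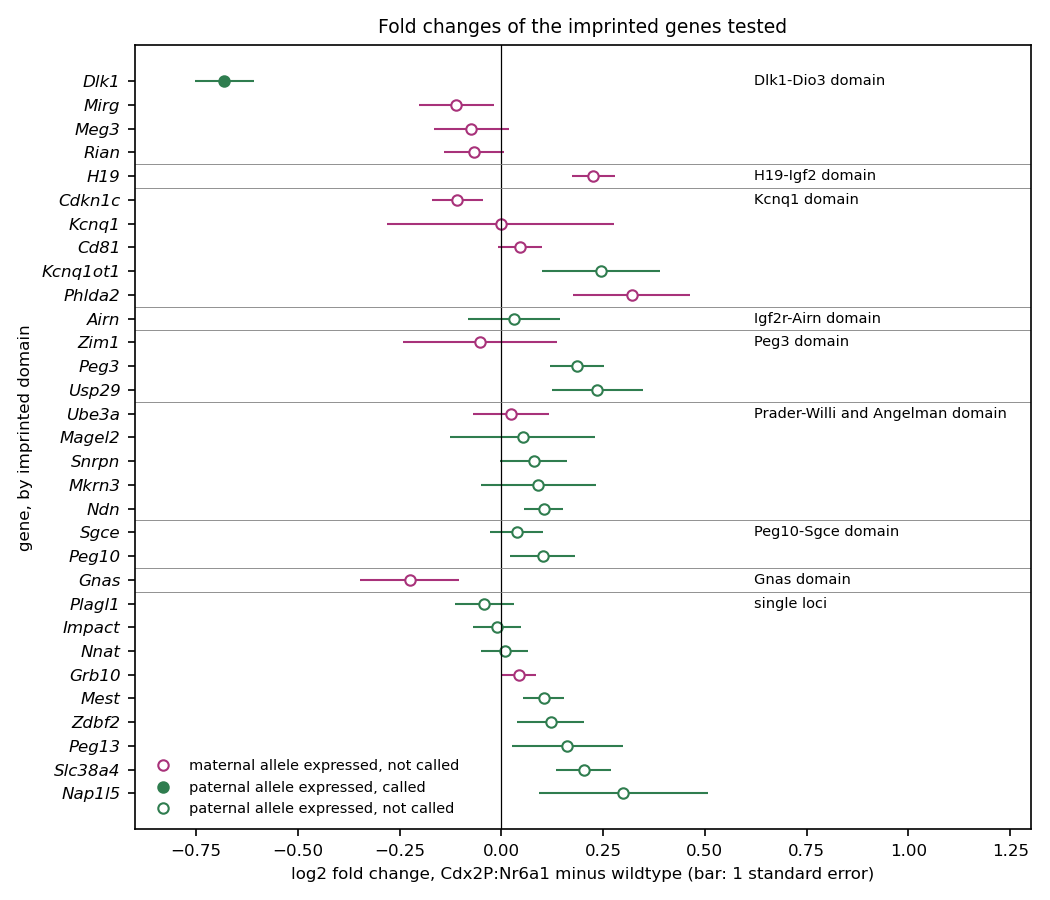
Log2 fold change (Cdx2P:Nr6a1 minus wildtype, 4 and 2 libraries) of the 31 imprinted genes tested, by cluster, with bars of 1 standard error, coloured by the parental copy known to be expressed. Dlk1 at -0.68 is the filled point, the only gene called, and the other 30 lie between -0.23 and 0.32.

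Dlk1 encodes a membrane protein related to Notch ligands that holds back differentiation, and it is read from the paternal copy. It lies on the plus strand of chromosome 12 from 109452823 to 109463336, and its 5657 exon bases overlap no other gene. Its CPM was 97.1, 83.2, 93.6 and 95.4 in wildtype replicates 1 to 4 and 56.4 and 59.2 in the Cdx2P:Nr6a1 replicates. The groups did not overlap, and both transgenic embryos lay well below the lowest wildtype embryo. Dlk1 fell from 92.3 ± 6.26 (SD, n = 4) to 57.8 ± 1.98 (SD, n = 2) CPM, which is a log2 fold change of -0.68 ± 0.07 (standard error, SE, adjusted p = 0.00383, quasi-likelihood test in edgeR), or -37.6%. It was called under each of the 12 alternatives other than the replicate block, with an adjusted p between 4.22e-25 and 0.0465 (edgeR and DESeq2) and a log2 fold change between -0.73 and -0.64, and under the block as well.

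The other tested genes of the cluster were not called. Meg3, Rian and Mirg are long noncoding RNAs read in 1 direction from the maternal copy, and they carry many microRNAs and small nucleolar RNAs. Meg3 (chromosome 12, 109541001 to 109571726) had a CPM of 179.7, 199, 178 and 161 in wildtype and of 188 and 155 in Cdx2P:Nr6a1. Rian (109603940 to 109661716) had 342, 361, 369 and 341 in wildtype and 371 and 306 in Cdx2P:Nr6a1. Mirg (109729764 to 109749460) had 21.8, 24.01, 20.6 and 20.4 in wildtype and 21.3 and 19.1 in Cdx2P:Nr6a1. For all 3 RNAs the groups overlapped, and replicate 2 of the transgenic embryos was the lowest of the 6 libraries while replicate 1 lay within the wildtype range or just above it.

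For these 3 RNAs the log2 fold change was -0.07 ± 0.09 (SE, adjusted p = 0.896, quasi-likelihood test in edgeR) for Meg3, -0.07 ± 0.07 (SE, adjusted p = 0.878) for Rian and -0.11 ± 0.09 (SE, adjusted p = 0.815) for Mirg. For Meg3 and Rian it turned to 0.06 without Cdx2P:Nr6a1 replicate 2. The other paternally read genes of the cluster were below the filter: Rtl1, derived from a retrotransposon and needed in placental vessels, had 20 to 52 counts per library, and Dio3, which inactivates thyroid hormone, had 71 to 93. Their CPM was 0.640 ± 0.191 and 1.63 ± 0.301 (SD, n = 4) in wildtype and 0.614 ± 0.226 and 1.58 ± 0.363 (SD, n = 2) in Cdx2P:Nr6a1, and the groups overlapped for both.

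**Figure D3:**
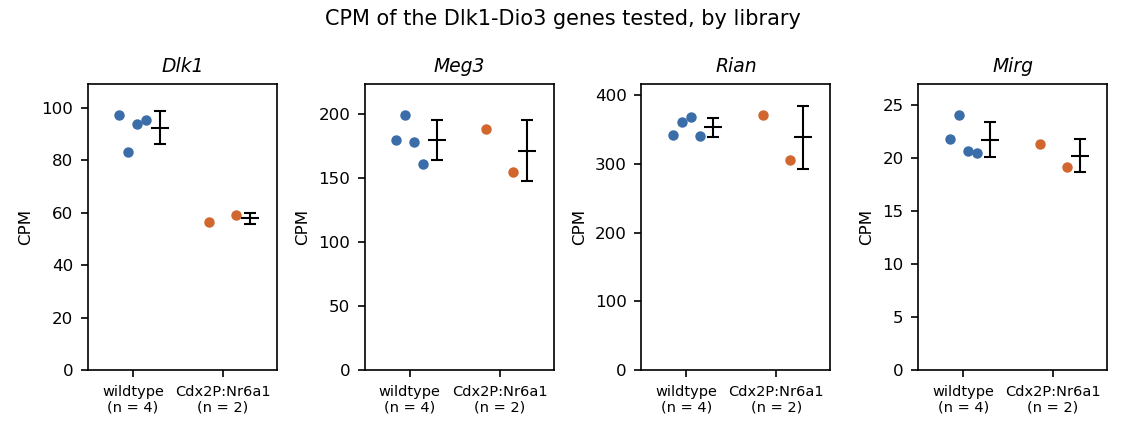
CPM of Dlk1, Meg3, Rian and Mirg in each library (points; 4 wildtype, 2 Cdx2P:Nr6a1), with the mean and SD beside them. Dlk1 drops from 92.3 to 57.8 with no overlap between genotypes, whereas the other 3 genes overlap.

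The ratio of Dlk1 to its neighbours within a library does not depend on the scaling of that library. The log2 ratio of Dlk1 to Meg3 was -0.89, -1.26, -0.93 and -0.76 in the wildtype libraries and -1.74 and -1.39 in the Cdx2P:Nr6a1 libraries, so that both transgenic embryos lay below all wildtype embryos. The mean ratio shifted by -0.60 for Meg3, by -0.61 for Rian and by -0.57 for Mirg. Each shift had a two-sided exact permutation p of 0.0667, the smallest that 2 libraries against 4 can give over 15 arrangements, and the ratios were chosen after the values were seen.

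H19 stands next to Igf2, the growth factor gene read from the paternal copy, on chromosome 7. H19 (142575529 to 142578143, minus strand) had a CPM of 2413, 2522, 2571 and 2799 in wildtype and of 3098 and 2952 in Cdx2P:Nr6a1. Both transgenic embryos lay above all wildtype embryos, of which replicate 4 was the highest. The means were 2576 ± 162 (SD, n = 4) and 3025 ± 104 (SD, n = 2), a log2 fold change of 0.23 ± 0.05 (SE), and H19 was not called (adjusted p = 0.0869, quasi-likelihood test in edgeR). It was called by DESeq2 (adjusted p = 0.00800), without wildtype replicate 4 (adjusted p = 0.0324, edgeR) and with the replicate number as a block (adjusted p = 0.0239, edgeR), and its adjusted p rose to 0.595 with Prl8a2 as a covariate, an alternative chosen after the data were seen.

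Prl8a2, a prolactin family gene of the decidua and trophoblast, is given beside H19 because it differed between the libraries. Its CPM was 7.02, 3.30, 0.340 and 21.4 in wildtype replicates 1 to 4 and 30.5 and 21.0 in Cdx2P:Nr6a1, so that wildtype replicate 4 stood with the transgenic embryos. Of 5 trophoblast and decidua markers, only Prl8a2 passed the filter. The summed CPM of the 5 was 0.358 to 23.2 in wildtype and 26.3 and 31.1 in Cdx2P:Nr6a1. Gcm1 was at 0 in 5 of the 6 libraries and Tpbpa in 4. With Prl8a2 as a covariate the log2 fold change of H19 was 0.17. The part of these cells in the level of H19 was not tested further.

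Igf2, which is no member, rose (chromosome 7, 142650766 to 142666816, minus strand). Its CPM was 64.4, 65.0, 59.2 and 62.4 in wildtype and 79.2 and 80.5 in Cdx2P:Nr6a1. The log2 fold change was 0.34 ± 0.05 (SE, adjusted p = 0.0168, quasi-likelihood test in edgeR), and the groups did not overlap. The call was lost without wildtype replicate 4 (adjusted p = 0.0536, edgeR), without Cdx2P:Nr6a1 replicate 1 (0.101) or replicate 2 (0.144), and with Prl8a2 as a covariate (0.189). Of its exon bases 64.5% are shared with other genes, 62.8% with the same-strand gene Gm49394, which is at 0 counts in every library. The log2 ratio of Igf2 to H19 ranged from -5.49 to -5.23 in wildtype and was -5.29 and -5.20 in Cdx2P:Nr6a1. The mean ratio shifted by 0.11 (exact permutation test, two-sided p = 0.267), and the groups overlapped.

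Airn, the paternally read RNA that silences Igf2r in cis, and Igf2r, the receptor that clears IGF2, did not differ beyond the spread between embryos. Airn (chromosome 17, 12741311 to 12860122) had a CPM of 11.6, 15.2, 14.2 and 13.4 in wildtype and of 14.0 and 13.9 in Cdx2P:Nr6a1, with a log2 fold change of 0.03 ± 0.11 (SE). Igf2r had a log2 fold change of -0.02 ± 0.06 (SE). Neither was called, with adjusted p of 0.971 and 0.956 (quasi-likelihood test in edgeR).

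**Figure D4:**
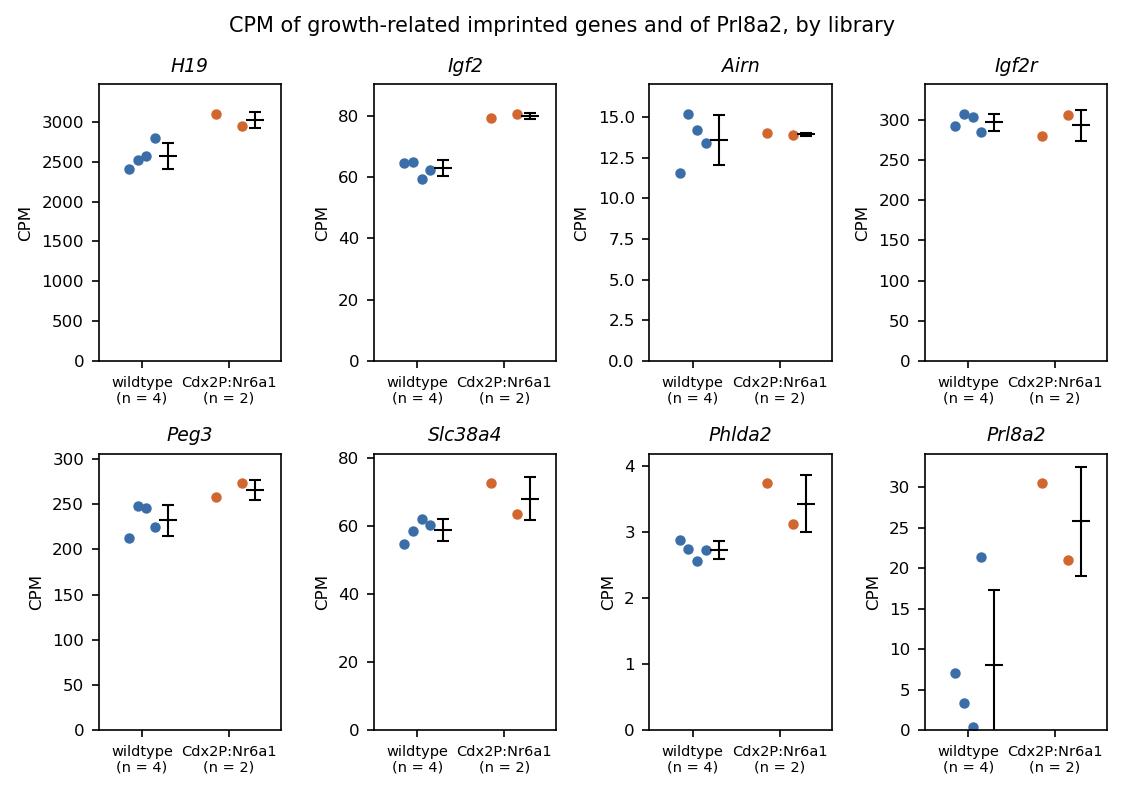
CPM of H19, Igf2, Airn, Igf2r, Peg3, Slc38a4, Phlda2 and Prl8a2 in each library (points; 4 wildtype, 2 Cdx2P:Nr6a1), with the mean and SD beside them (the lower bar of wildtype Prl8a2 runs below the axis). H19 has means of 2576 and 3025 and was not called, Igf2 rises from 62.8 to 79.8 and was called, and Prl8a2 is high in 1 wildtype library.

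In the Peg3 cluster on chromosome 7, Peg3 and Usp29 are read from the paternal copy in opposite directions from starts close together, and Zim1 from the maternal copy. Peg3, a large zinc finger protein linked to growth and cell death, had a CPM of 212, 248, 246 and 224 in wildtype and of 258 and 273 in Cdx2P:Nr6a1. Usp29, a ubiquitin-specific protease, had 6.26, 7.38, 7.64 and 6.43 in wildtype and 8.44 and 7.96 in Cdx2P:Nr6a1. Both genes lay higher in both transgenic embryos, and wildtype replicates 1 and 4 were the lowest libraries for both. The log2 fold changes were 0.19 ± 0.07 (SE, adjusted p = 0.305, quasi-likelihood test in edgeR) for Peg3 and 0.24 ± 0.11 (SE, adjusted p = 0.520) for Usp29, and neither was called. Zim1, a zinc finger gene, varied more, at 3.91 ± 0.765 (SD, n = 4) CPM in wildtype compared with 3.81 ± 0.547 (SD, n = 2) in Cdx2P:Nr6a1, with overlapping groups. In exon bases, 14.8% of Usp29 are shared with other genes, nearly all with Zim3, which is at 0 counts.

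The Kcnq1 cluster, also on chromosome 7, is controlled by Kcnq1ot1, a paternally read RNA antisense to Kcnq1 that silences growth restrictors. Cdkn1c, an inhibitor of cyclin-dependent kinases, had a CPM of 67.8, 66.0, 66.8 and 69.8 in wildtype and of 67.6 and 58.5 in Cdx2P:Nr6a1. Phlda2, a PH domain protein that limits placental growth, had 2.89, 2.74, 2.56 and 2.74 in wildtype and 3.74 and 3.13 in Cdx2P:Nr6a1. Phlda2 was thus higher in both transgenic embryos, while Cdkn1c was lower in 1 of them only. With log2 fold changes of -0.11 ± 0.06 (SE, adjusted p = 0.657, quasi-likelihood test in edgeR) for Cdkn1c and 0.32 ± 0.14 (SE, adjusted p = 0.481) for Phlda2, neither was called. For Cdkn1c, 30.7% of the exon bases are shared with the opposite-strand gene Gm44732.

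Kcnq1 itself encodes a potassium channel. Kcnq1ot1 had a CPM of 14.1, 18.8, 17.4 and 14.5 in wildtype and of 22.0 and 16.7 in Cdx2P:Nr6a1. Kcnq1 had 1.34, 2.33, 1.86 and 1.56 in wildtype and 2.27 and 1.35 in Cdx2P:Nr6a1. The groups overlapped for both, and neither was called (adjusted p = 0.670 and 0.999, quasi-likelihood test in edgeR). Cd81 was the steadiest member in wildtype, at 145 ± 2.04 CPM (SD, n = 4), a coefficient of variation of 1.40%, and reached 160.3 and 141 in Cdx2P:Nr6a1. Ascl2, a transcription factor of the placenta, did not reach the filter (12 to 25 counts per library), at 0.427 ± 0.0722 CPM (SD, n = 4) in wildtype compared with 0.307 ± 0.0495 (SD, n = 2) in Cdx2P:Nr6a1. It lay at 0.508, 0.358, 0.376 and 0.467 CPM in wildtype and at 0.272 and 0.342 in Cdx2P:Nr6a1. Both transgenic embryos were thus below all wildtype embryos, at counts too low for the main test. In the fit without the filter, which tested all 34 members, Ascl2 was not called.

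The Prader-Willi and Angelman cluster on chromosome 7 gave 5 members, all tested and 0 called, with 0 at an unadjusted p under 0.05 (and 0 called by DESeq2). Ndn, a MAGE family protein that holds back cell division, had a CPM of 78.3, 76.1, 73.7 and 74.5 in wildtype and of 82.7 and 80.6 in Cdx2P:Nr6a1. The groups did not overlap, but the log2 fold change was 0.10 ± 0.05 (SE, adjusted p = 0.517, quasi-likelihood test in edgeR). Snrpn, a component of the splicing machinery, had 25.2 ± 2.04 CPM (SD, n = 4) in wildtype compared with 26.7 ± 0.496 (SD, n = 2) in Cdx2P:Nr6a1. Magel2, another MAGE family gene, and Mkrn3, a ubiquitin ligase, were low at 2.72 ± 0.187 and 5.95 ± 0.743 CPM in wildtype, and both overlapped between groups. Ube3a, the ubiquitin ligase lost in Angelman syndrome, had 87.6 ± 9.16 CPM in wildtype and 89.5 ± 9.06 in Cdx2P:Nr6a1. Of the exon bases, 34.1% of Snrpn and 27.3% of Ube3a are shared with other genes, the latter in part with Snhg14, which runs antisense to it.

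Outside these clusters, Mest (chromosome 6, 30723547 to 30748465) had a CPM of 480.0, 493, 508 and 521 in wildtype and of 531 and 549 in Cdx2P:Nr6a1. Slc38a4 (chromosome 15, 96994820 to 97055956), an amino acid transporter of placenta and liver, had 54.5, 58.6, 62.1 and 60.1 in wildtype and 72.5 and 63.5 in Cdx2P:Nr6a1. Both transgenic embryos lay above all wildtype embryos for both genes, by little for Mest replicate 1 and Slc38a4 replicate 2. The log2 fold changes were 0.10 ± 0.05 (SE, adjusted p = 0.533, quasi-likelihood test in edgeR) for Mest and 0.20 ± 0.07 (SE, adjusted p = 0.261) for Slc38a4, and neither was called. With a library left out, the log2 fold change of Slc38a4 ranged from 0.11 to 0.29. For Mest, 23.1% of the exon bases are shared with Copg2 on the opposite strand.

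The CPM of Grb10 was 1379, 1477, 1502 and 1448 in wildtype and 1481 and 1519.7 in Cdx2P:Nr6a1, with a log2 fold change of 0.04 ± 0.04 (SE, adjusted p = 0.870, quasi-likelihood test in edgeR). Nnat had 199 ± 10.3 CPM (SD, n = 4) in wildtype compared with 201 ± 8.50 (SD, n = 2) in Cdx2P:Nr6a1, a log2 fold change of 0.01 ± 0.06 (SE). Plagl1, a zinc finger transcription factor that acts on other imprinted genes, had 291 ± 24.8 and 284 ± 7.60 CPM. Impact, a regulator of translation under amino acid shortage, had 55.9 ± 2.29 and 55.8 ± 4.07 CPM. The genotypes overlapped for all 4 genes.

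The remaining members also overlapped between genotypes. Peg10, a retrotransposon-derived gene needed for the placenta, had a CPM of 282, 329, 317 and 321 in wildtype and of 308 and 364 in Cdx2P:Nr6a1, and its neighbour Sgce, a sarcoglycan read in the opposite direction, had 30.1 ± 1.53 (SD, n = 4) and 31.0 ± 1.83 (SD, n = 2). Gnas, the stimulatory G protein subunit, had 21.6 ± 2.82 and 18.6 ± 1.72 CPM, and 22.0% of its exon bases are shared with Nespas and Gm20721. Zdbf2, Peg13 and Nap1l5 had wildtype means of 59.3, 17.2 and 2.92 CPM and log2 fold changes of 0.12, 0.16 and 0.30 (standard errors 0.08, 0.14 and 0.21). With a library left out, the log2 fold change ranged from 0.04 to 0.20 for Zdbf2 and from 0.07 to 0.48 for Nap1l5. For Peg13, a noncoding RNA inside Trappc9, the excess came from 1 embryo, with 15.9 and 22.7 CPM in the transgenic replicates.

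By the parental copy known to be expressed, the 19 paternally expressed genes tested had a median log2 fold change of 0.10, with 16 above and 3 below 0 and 1 called lower. The 12 maternally expressed genes had a median of -0.03, with 5 above and 7 below 0 and 0 called (1 had an unadjusted p under 0.05 in edgeR's test). The difference between these classes was not tested. The maternal class includes Ube3a and Cd81, which are imprinted in few tissues only. The classes may thus hold genes read from both copies in the tailbud. The summed CPM of the 34 genes was 7570 and 7378 in Cdx2P:Nr6a1, above the wildtype range, but without H19 it was 4472 and 4427, beside 4153 to 4461 in wildtype, so that 1 of the embryos then lay within that range.

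**Figure D5:**
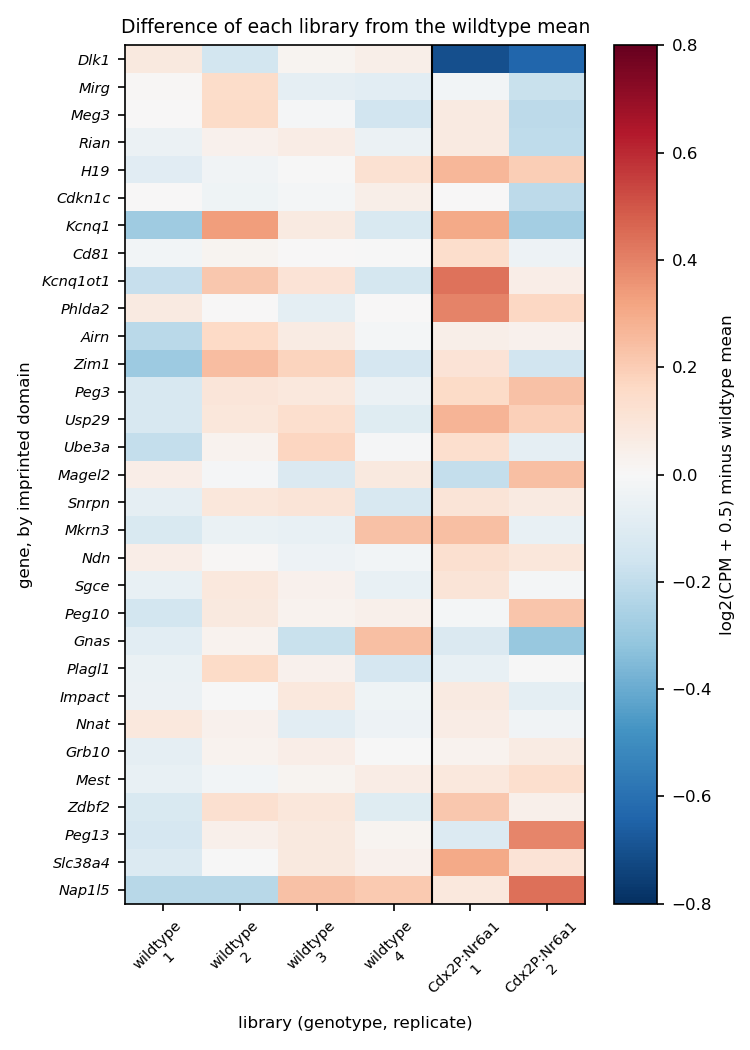
Difference of each library from the wildtype mean, as log2(CPM + 0.5), for the 31 imprinted genes tested, with 4 wildtype columns to the left of the line and 2 Cdx2P:Nr6a1 columns to the right. Dlk1 is dark blue in both Cdx2P:Nr6a1 columns, and wildtype replicate 1 is the lowest wildtype library for 17 of the 31 genes.

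Embryos of 1 genotype also differed over the members as a group. Wildtype replicate 1 was the lowest wildtype library for 17 of the 31 genes tested (54.8%), compared with 35.8% of all genes tested, and this library had the highest erythroid sum, 19537 CPM beside 8102 to 15160 in the other wildtype libraries. Between the transgenic embryos, replicate 1 was the higher for 22 of the 31 genes (71.0%), compared with 54.2% of all genes. The part of the erythroid cells was not tested. The median coefficient of variation over the 4 wildtype libraries was 6.90% for the members and 5.85% over all genes tested.

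Pairs of neighbours were compared over the 6 libraries. Of 10 pairs, 5 held a gene whose genotypes did not overlap, so no pooled correlation is given for them, and with 4 and 2 libraries the genotypes were too small to give one each. Among the other 5, the log2 CPM of Meg3 and Mirg had a Pearson r of 0.91 (exact permutation p = 0.00972, 0.0972 after Benjamini-Hochberg adjustment over the 10 pairs) and a Spearman rho of 0.94 (permutation p = 0.0167, adjusted 0.111). Without the 2 libraries farthest from the median of Meg3, r was 0.69. For Kcnq1ot1 and Kcnq1, r was 0.84 (exact permutation p = 0.0375, adjusted 0.111) and rho 0.89 (permutation p = 0.0333, adjusted 0.111), and r was 0.71 without 2 libraries. Kcnq1ot1 lies within the span of Kcnq1 on the opposite strand, with 121 exon bases shared, and the strand setting of the counting is not known. Kcnq1 had 66 to 130 counts per library. For Meg3 and Rian, r was 0.81 (exact permutation p = 0.0444, adjusted 0.111) and rho 0.71 (permutation p = 0.136, adjusted 0.340), and r was 0.69 without 2 libraries. For Rian and Mirg, r was 0.62 (exact permutation p = 0.193, adjusted 0.322) and rho 0.54 (permutation p = 0.297, adjusted 0.593), and r was 0.23 without 2 libraries. For Peg10 and Sgce, r was 0.13 (exact permutation p = 0.807, adjusted 0.858) and rho -0.03 (permutation p = 1.0), and r was -0.21 without 2 libraries. No pair passed the adjustment.

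Several members are hosts of microRNAs, which libraries of polyadenylated RNA do not capture as mature molecules. On the strand of the host, RefSeq places 14 hairpins in Mirg, 3 in Rian, 2 in Meg3 and 1 each in H19, Mest, Usp29 and Rtl1, and their own rows held 0 to 25 counts over all 6 libraries. Only 1 seed, GGUUGCC, was shared between mature sequences on the host strand, both of them in Mirg. They are shown with miR-675-5p, the microRNA of H19, the most abundant member, and with bases 2 to 8, the seed, in capitals.
mmu-miR-453: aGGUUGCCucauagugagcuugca
mmu-miR-496a-5p: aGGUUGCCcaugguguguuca
mmu-miR-675-5p: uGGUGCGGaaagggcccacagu
The levels of these microRNAs were not measured.

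Of 45 other imprinted genes, 28 passed the filter, with 2 called higher, Igf2 and Gatm, and 0 called lower. Over all genes tested, 0.785% were called higher and 0.809% lower. Gatm, the first enzyme of creatine synthesis, had a CPM of 2.12, 3.03, 3.18 and 4.40 in wildtype and of 6.56 and 13.9 in Cdx2P:Nr6a1. It rose by a log2 fold change of 1.69 ± 0.30 (SE, adjusted p = 0.0299, quasi-likelihood test in edgeR), and its size rests on Cdx2P:Nr6a1 replicate 2, without which it was 1.04 (adjusted p = 0.266, edgeR). The call was also lost without wildtype replicate 1, 2 or 3 (adjusted p = 0.0547, 0.0603 and 0.0601, edgeR) and with either covariate (0.0679 for the Y-linked genes, 0.248 for Prl8a2). The median log2 fold change of the 28 genes was 0.01, with 15 above and 13 below 0.

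Of 21 factors that set or keep imprints, 19 passed the filter. None was called (0 in edgeR, 0 in DESeq2), and 3 of the 19 had an unadjusted p under 0.05 in edgeR, beside 10.5% of all genes. These were the methyltransferases Dnmt3a and Dnmt3b and the demethylase Tet1. Dnmt3a had a CPM of 619, 559, 562 and 552 in wildtype and of 519 and 496 in Cdx2P:Nr6a1, Dnmt3b had 89.6, 85.0, 85.0 and 87.0 and then 98.6 and 96.1, and the genotypes did not overlap for either. This held for 3 of the 19 factors (15.8%) and for 18.6% of all genes. The log2 fold changes were -0.18 ± 0.06 (SE, adjusted p = 0.258, edgeR) for Dnmt3a, 0.16 ± 0.05 (SE, adjusted p = 0.186) for Dnmt3b and -0.20 ± 0.08 (SE, adjusted p = 0.360) for Tet1. Zfp57 was read at 40.6 ± 4.74 CPM (SD, n = 4) in wildtype compared with 45.3 ± 3.15 (SD, n = 2) in Cdx2P:Nr6a1, and Trim28 at 1115 ± 60.7 and 1116 ± 13.7 CPM. The factors of the germline Dnmt3l and Dppa3 were below the filter.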

How the data were processed

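RNA from 6 tailbuds was sequenced with stranded libraries of polyadenylated RNA, 4 wildtype and 2 Cdx2P:Nr6a1, grouped by the genotype in the labels. The deposited table holds raw, unnormalized counts for each gene. Per the submitters' processing notes, STAR and the build mm10 were used, with edgeR for the authors' own comparison, and the counting program and its strand setting are not given in the sources used here. Exon coordinates came with the counts. A second file of the authors, with fold changes, FDR and average expression for genes of their own comparison, was not used, and 0 columns belonged to other samples. In 4 rows a gene name had been turned into a date, and they were kept as rows.

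The members and gene lists were chosen with earlier results of these data known. Counts were scaled to CPM by the column totals. A gene was tested where 2 or more libraries exceeded both a count of 10 and a CPM of 2 (12733 genes), and the genotypes were compared with edgeR 4.0.16 in R 4.3.3 (TMM normalization, factors from 0.992 to 1.01, quasi-likelihood test, no covariates) at a Benjamini-Hochberg adjusted p under 0.05. The biological coefficient of variation was 9.40%. A fit on simulated counts with known changes was checked first. Correlations used log2(CPM + 0.5). DESeq2 1.42.0 was the other count model. Permutation tests used scipy 1.17.1 and plots matplotlib 3.10.9 (Python 3.11.15). The fits were repeated with 12 other settings (the likelihood ratio test, DESeq2, RLE normalization, no filter, the replicate number as a block, the summed Y-linked genes as a covariate, and each of the 6 libraries left out) and with 1 added after the data were seen (Prl8a2 as a covariate). Levels per kb were also computed over unshared exon bases, likewise chosen later. With a Cdx2P:Nr6a1 library left out, the remaining one is assumed to vary like the wildtype libraries. No 2 libraries of a group agreed within sampling noise (chi-square per degree of freedom from 16.5 to 52.9).

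All members were named. Fold changes with SE and adjusted p are given for those called and those tested whose genotypes do not overlap, and for other members in part. Of the other imprinted genes they are given for Igf2, Igf2r and Gatm. Dnmt3a, Dnmt3b, Tet1, Zfp57, Trim28 and Prl8a2 were named after their values were seen. Library totals from 44073460 to 67183802 limit the precision of low genes, and p-values measure the spread between these embryos. Sequences come from RefSeq (GRCm38.p6).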

Additional observations from a re-analysis of the deposited data

How the results depend on the processing

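The call of Dlk1 and the count of 0 maintenance factors held under all alternatives run. Members called higher numbered 1 (H19) with DESeq2 and with the replicate block, and 0 to 1 with a library left out. Genes called numbered 401 by the likelihood ratio test, 477 by DESeq2, 876 without the filter, 442 with the replicate block, 37 with Prl8a2 as a covariate, and 61 to 175 with a library left out. Other imprinted genes called numbered 1 with the Y-linked covariate, 0 with Prl8a2, and 0 to 1 with a library left out. The cause of these changes was not tested, beyond the fewer libraries in the fits that leave one out.

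Of 401 fold changes of members recomputed under the alternatives, 34 turned direction, in 15 members of which 0 had a call. With Prl8a2 as a covariate these were Zim1 (0.18), Kcnq1 (0.16), Plagl1 (0.057), Magel2 (-0.041), Mkrn3 (-0.065), Impact (0.046) and Nnat (-0.034). Kcnq1 was at 0.0064 in the likelihood ratio test, 0.0086 in DESeq2 and 0.036 with the Y-linked covariate, and with the replicate block Impact was at 0.012 and Nnat at -0.053. With a library left out, the log2 fold change ranged from -0.21 to 0.056 for Meg3, -0.21 to 0.061 for Rian, -0.19 to 0.087 for Zim1, -0.12 to 0.34 for Kcnq1, -0.092 to 0.0087 for Plagl1, -0.24 to 0.28 for Magel2, -0.068 to 0.24 for Mkrn3, -0.028 to 0.22 for Peg10, -0.017 to 0.092 for Sgce, -0.079 to 0.058 for Impact, -0.030 to 0.045 for Nnat, -0.041 to 0.086 for Airn, -0.13 to 0.40 for Peg13, -0.076 to 0.12 for Ube3a and -0.043 to 0.13 for Cd81.

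The replicate numbers name samples only, and the labels give no shared litter. Deviations from the group mean correlated at 0.20 for replicate number 1 and at -0.15 for number 2 over 12733 genes, so the numbers were not taken to pair the embryos. With 2 transgenic embryos, each with its own insertion, and 4 wildtype ones, small changes of members such as Phlda2 or Nap1l5, with standard errors of 0.14 and 0.21, were not detectable. For genes that share exon bases the count may leave out reads from those bases, since the counting rule is not known.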
